A study of Homo sapiens with 12 samples.

Results

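The genes described here encode core components of the spliceosome, the machine that removes introns from pre-mRNA. They were the rows of the expression tables whose symbol begins with SF3A, SF3B, SNRP, PRPF, U2AF or LSM, followed by a letter or digit and without a hyphen. Of 48114 rows, 53 met this rule. Polyadenylated RNA was sequenced from 12 libraries of 2 pancreatic ductal adenocarcinoma (PDAC) cell lines. PANC-1, used in the study as a basal-like line, was transfected with a control siRNA (siCtrl) or with pools of siRNAs against the splicing regulators QKI (siQKI) or RBFOX2 (siRBFOX2), at 40 nM for the targeted genes, and harvested at 48 h (3 libraries each). HPAF-II, used as a classical line, received siCtrl (3 libraries). All groups were thus transfected, each line is a single established line, and the labels state no knockdown in HPAF-II. The labels call the libraries of a group biological replicates.

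Spliceosomes assemble anew on each intron from small nuclear ribonucleoproteins (snRNPs), particles of a short nuclear RNA and its proteins. The U1 snRNP binds the 5′ splice site, the U2AF dimer binds the polypyrimidine tract and the AG at the 3′ splice site, and the U2 snRNP binds the branch point through its SF3A and SF3B complexes. The U4/U6.U5 tri-snRNP then joins and is remodelled into the catalytic form. Sm proteins form a ring on the U1, U2, U4 and U5 RNAs, whereas LSm2 to LSm8 form the ring on U6, and LSm1 replaces LSm8 in a cytoplasmic ring that acts in mRNA decay. Mutations of SF3B1 and U2AF1 recur in human cancers.

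By role, the 53 rows held 8 Sm ring genes, 2 genes of U1 proteins, 11 of U2, 3 of U2AF, LSM1 to LSM8, 5 genes of the tri-snRNP, 8 other PRPF genes, 7 other genes with an LSM name and 1 pseudogene. The pseudogene, SNRPD2P2, was listed at 0 in all 12 libraries, so that 52 genes were tested. The name rule also caught genes with other functions: LSM10 and LSM11 belong to the U7 snRNP of histone mRNA processing, LSM14A and LSM14B act in cytoplasmic mRNA storage and decay, and LSMEM1 and LSMEM2 are membrane proteins that match by symbol alone. It left out other core proteins such as SNRNP70, which were followed in a separate list. SNRPN shared a row with SNURF, SNHG14 and IPW (hg38 chr15:24823608-25419462), so its values belong to the locus and not to SNRPN mRNA alone.

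Upstream sequences were examined for 43 of the 53 genes, those with an entry in the RefSeq promoter table (GRCh38.p14). The 250 bases before the start annotated there were searched on both strands for 6 short motifs, chosen after the expression values were seen. For some genes, among them U2AF2, SF3A3 and SF3B4, this window lies inside the interval of the expression row, downstream of its 5′ end. The ETS-type element CCGGAAGT was found in 11 of 43 (25.6%), against 3.64% of all 27303 promoters in the table and 6.25% of the 13137 promoters of tested genes. Of these 11, 7 belonged to the 10 U2 snRNP genes with an entry (SF3A1, SF3A2, SF3A3, SF3B2, SF3B4, SF3B6 and SNRPA1), and the others were U2AF2, PRPF6, SNRPB and SNRPE. The GC box GGGCGG was found in 55.8%, against 63.8% of tested genes, CCAAT in 37.2% against 34.2% and TATAAA in 2.33% against 6.29%. An NRF1-type palindrome was found in 2.33% against 1.78%, and a YY1-type element in 0% against 0.396%. The median number of CpG dinucleotides was 20 in both sets. A match describes letters in this window, not a bound site. The promoters of both subunits of U2AF are shown because these genes moved in opposite directions in siQKI cells, and those of SF3A3 and SF3B2 as examples of the U2 genes that hold the ETS-type element. Capitals mark the ETS-type element (CCGGAAGT or ACTTCCGG) and the GC box (GGGCGG or CCGCCC). The sequences lie at chr21:43107571-43107820 (minus strand), chr19:55654785-55655034 (plus), chr1:37990023-37990272 (minus) and chr11:66052114-66052363 (plus), in this order.
U2AF1: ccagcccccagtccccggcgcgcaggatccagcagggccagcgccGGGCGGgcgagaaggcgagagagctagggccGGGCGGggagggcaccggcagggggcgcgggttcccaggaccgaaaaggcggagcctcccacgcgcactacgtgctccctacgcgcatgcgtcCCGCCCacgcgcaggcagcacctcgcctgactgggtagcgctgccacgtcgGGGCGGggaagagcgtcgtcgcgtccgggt
U2AF2: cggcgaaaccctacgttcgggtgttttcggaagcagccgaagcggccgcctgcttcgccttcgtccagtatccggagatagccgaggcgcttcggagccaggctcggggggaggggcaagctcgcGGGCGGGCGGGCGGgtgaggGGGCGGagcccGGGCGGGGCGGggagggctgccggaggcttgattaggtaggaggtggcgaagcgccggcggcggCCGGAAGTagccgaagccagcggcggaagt
SF3A3: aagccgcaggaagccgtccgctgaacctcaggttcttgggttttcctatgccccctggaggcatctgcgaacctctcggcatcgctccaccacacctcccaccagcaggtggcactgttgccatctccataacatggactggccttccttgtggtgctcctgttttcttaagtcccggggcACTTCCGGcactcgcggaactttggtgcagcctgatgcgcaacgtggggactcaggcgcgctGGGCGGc
SF3B2: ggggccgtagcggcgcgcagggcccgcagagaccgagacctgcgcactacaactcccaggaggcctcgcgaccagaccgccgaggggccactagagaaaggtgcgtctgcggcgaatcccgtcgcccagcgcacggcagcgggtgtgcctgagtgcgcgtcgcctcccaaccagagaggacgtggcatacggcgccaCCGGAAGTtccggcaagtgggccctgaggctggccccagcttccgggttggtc

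The depth and identity of the libraries were checked first. The authors scaled the gene counts of each library by a size factor (normalized counts), and the depth in fragments is unknown, because the values do not move in steps of 1 fragment. The 10 most abundant genes took 9.72% to 15.6% of a library total. QKI fell to 4630, 5453 and 5020 normalized counts in siQKI from 24539 to 26150 in siCtrl, and RBFOX2 fell to 2403, 2171 and 1712 in siRBFOX2 from 15355 to 15508. In siQKI, RBFOX2 itself lay at 12520 to 12778 (log2 fold change -0.29, adjusted p = 0.021 by limma). This difference did not pass without siCtrl library 2 (adjusted p = 0.055), siCtrl library 3 (0.054), siQKI library 1 (0.051) or siQKI library 3 (0.059), nor with the upper quartile over tested genes (0.066) or non-zero genes (0.096), with equal library totals (0.069) or without the mean-variance trend (0.11). In values rescaled to a total of 1000000 per library, KRT8, KRT18 and KRT19, keratins of ductal epithelium, were between 390 and 5664 in all libraries. KRT7, another ductal keratin, was at 3.33 to 5.16 in PANC-1 and at 657 to 1154 in HPAF-II, and the epithelial marker EPCAM was at 12.4 to 14.2 in PANC-1 and at 327 to 487 in HPAF-II. VIM lay at 5066 or more in the PANC-1 libraries and at 15.2 or less in HPAF-II. CDH1 was 162 to 220 in HPAF-II. In PANC-1, CDH1 was 2.80 to 2.94 in siCtrl, 6.94 to 9.08 in siQKI and 3.95 to 4.77 in siRBFOX2. The leukocyte marker PTPRC and the endothelial marker PECAM1 were at 0.0632 or less in all libraries. The fibroblast markers DCN and LUM were at 0.0963 or less in PANC-1 and between 0.0638 and 1.26 in HPAF-II. In bulk RNA, fewer cells of a type and less RNA per cell cannot be told apart.

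To compare levels between genes, rescaled counts were divided by the median length of each gene's coding transcripts (GENCODE v29). In PANC-1 siCtrl cells SNRPC, a U1 protein that stabilizes pairing with the 5′ splice site, was the highest, at 589 ± 8.04 per kb (SD, n = 3). It was followed by SNRPD2 (293 ± 17.1), SNRPD1 (291 ± 7.47) and SF3B6 (286 ± 3.88), whose libraries overlapped, and by U2AF2 (267 ± 9.45), SNRPD3 (260 ± 14.4) and SNRPG (255 ± 18.5), which overlapped with each other as well. PRPF8, which holds the catalytic center, lay far lower at 11.0 ± 0.213 per kb, as did SF3B3 at 6.08 ± 0.115. These levels rest on transcript lengths of 7370 bases for PRPF8 and 9720 bases for SF3B3. SF3B1, which clamps the branch point, lay at 144 ± 5.98, but the median of its coding transcripts, 1389 bases, includes short isoforms, and the level per kb depends on that choice. LSMEM1 (0.703 ± 0.0782), LSM11 (0.651 ± 0.0588) and LSMEM2 (0.127 ± 0.0534) were at the bottom, and the first 2 of them overlapped.

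Together, the 53 genes took 0.589% to 0.615% of a PANC-1 siCtrl library. Their share was 0.546% to 0.557% in siQKI and 0.538% to 0.558% in siRBFOX2, and neither range overlapped that of siCtrl. In HPAF-II it was 0.657% to 0.698%, above all PANC-1 libraries. The share taken by the U2AF genes followed another order, with 0.0586% to 0.0604% in siQKI, 0.0540% to 0.0579% in siCtrl, 0.0499% to 0.0511% in siRBFOX2 and 0.0367% to 0.0379% in HPAF-II. U2AF2 makes up most of this share. The Sm ring took 0.121% to 0.129% in PANC-1 siCtrl and 0.170% to 0.184% in HPAF-II.

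**Figure D1:**
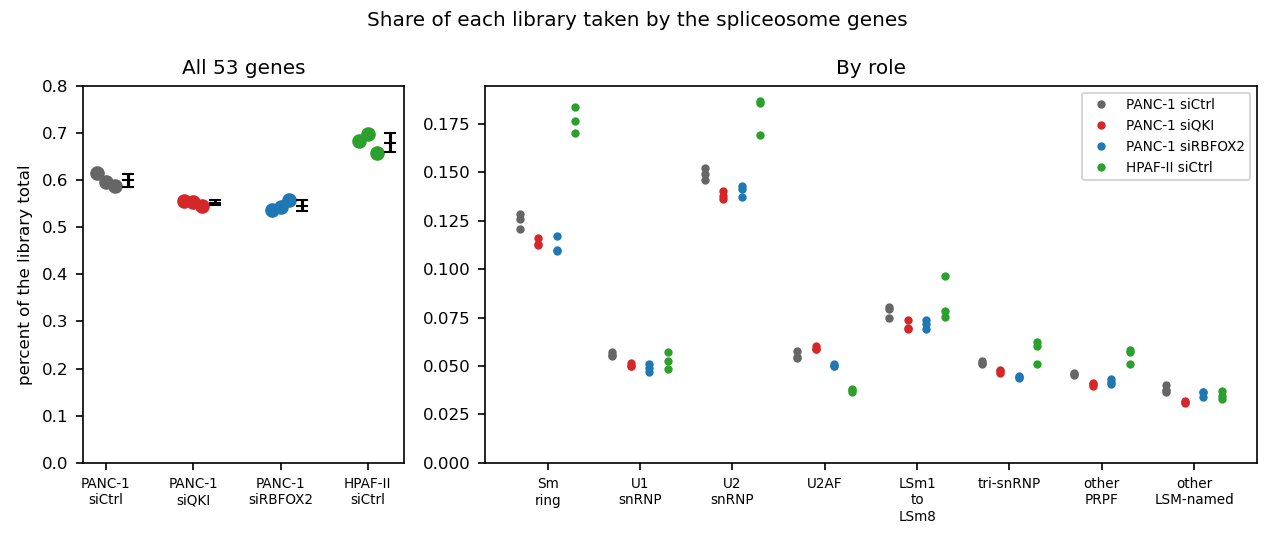
Percent of each library's total taken by all 53 genes (left, points are libraries, bars mean ± SD of 3 libraries) and by the genes of each role (right, points are libraries). The siQKI and siRBFOX2 libraries lie at 0.538% to 0.558% in the left panel, below the siCtrl libraries (0.589% to 0.615%), and only for U2AF does siQKI lie above siCtrl in the right panel.

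To find which components changed after QKI silencing, siQKI and siCtrl libraries were compared. Many spliceosome genes were modestly lower: 36 of 52 fell, U2AF2 was the only one that rose, and 15 did not pass the test. No called change reached 1.5-fold. The number that fell depended on the scaling and on the model: it was 26 with upper-quartile scaling over tested genes, 23 with the upper quartile over non-zero genes and 25 without the mean-variance trend. Of all 22544 genes tested, 33.0% were called, 18.1% as lower and 14.9% as higher, and the share of spliceosome genes called lower, 69.2%, lay above this background. As these genes are abundant, they were also read against the 11085 tested genes whose mean was 1000 or more, of which 54.0% were called and 33.4% were lower. The median log2 fold change of the 52 genes was -0.22, against 0.03 over all tested genes and -0.05 over the abundant ones. The libraries of the 2 groups did not overlap for 37 of the 52 genes, against 44.7% of tested and 64.7% of abundant genes. The test was limma on log2(normalized count + 1) with Benjamini-Hochberg adjustment over all tested genes and a threshold of 0.05.

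The 2 partners of the U2AF dimer moved apart. U2AF1, the small subunit that reads the AG at the 3′ splice site, was at 25438, 23174 and 22836 normalized counts in siCtrl, at 16904, 16000 and 16893 in siQKI and at 20881, 20808 and 23766 in siRBFOX2. The siQKI libraries lay below every other library, whereas siCtrl and siRBFOX2 overlapped. U2AF1 fell by 30.2% in siQKI (log2 fold change -0.52 ± 0.057, standard error, adjusted p = 5.0e-06). In siRBFOX2 its log2 fold change was -0.13 (95% interval -0.25 to -0.01, adjusted p = 0.12). The hg38 assembly carries a near-identical copy, U2AF1L5, and how reads shared by both copies were counted is not given in the sources used here.

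U2AF2, the large subunit that binds the polypyrimidine tract, was at 159614, 154878 and 152612 in siCtrl, at 173179, 167374 and 167524 in siQKI and at 137441, 131214 and 136364 in siRBFOX2. The 3 groups did not overlap, with siQKI highest and siRBFOX2 lowest. U2AF2 rose in siQKI by 8.78% (log2 0.12 ± 0.035, adjusted p = 0.015) and fell by 13.3% in siRBFOX2 (log2 -0.21 ± 0.035, adjusted p = 0.00051). The rise in siQKI is small: it did not pass without siCtrl replicate 3 (adjusted p = 0.064), without siQKI replicate 1 (0.065) or without the mean-variance trend (0.073). U2AF1L4, a paralog of the small subunit, was at 10975, 12069 and 10852 in siCtrl and at 11201, 8860 and 8169 in siQKI, which overlap. Its log2 fold change of -0.28 ± 0.101 passed narrowly (adjusted p = 0.048) and was lost in 12 of 19 alternatives. Among these it did not pass without any 1 of the siCtrl libraries 1 (adjusted p = 0.072), 2 (0.16) and 3 (0.068), the siQKI libraries 2 (0.15) and 3 (0.22) or siRBFOX2 library 1 (0.052). Its exons overlap those of AD000671.2 on the same strand by 602 bases and those of PSENEN on the opposite strand by 186, so its counts are uncertain.

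**Figure D2:**
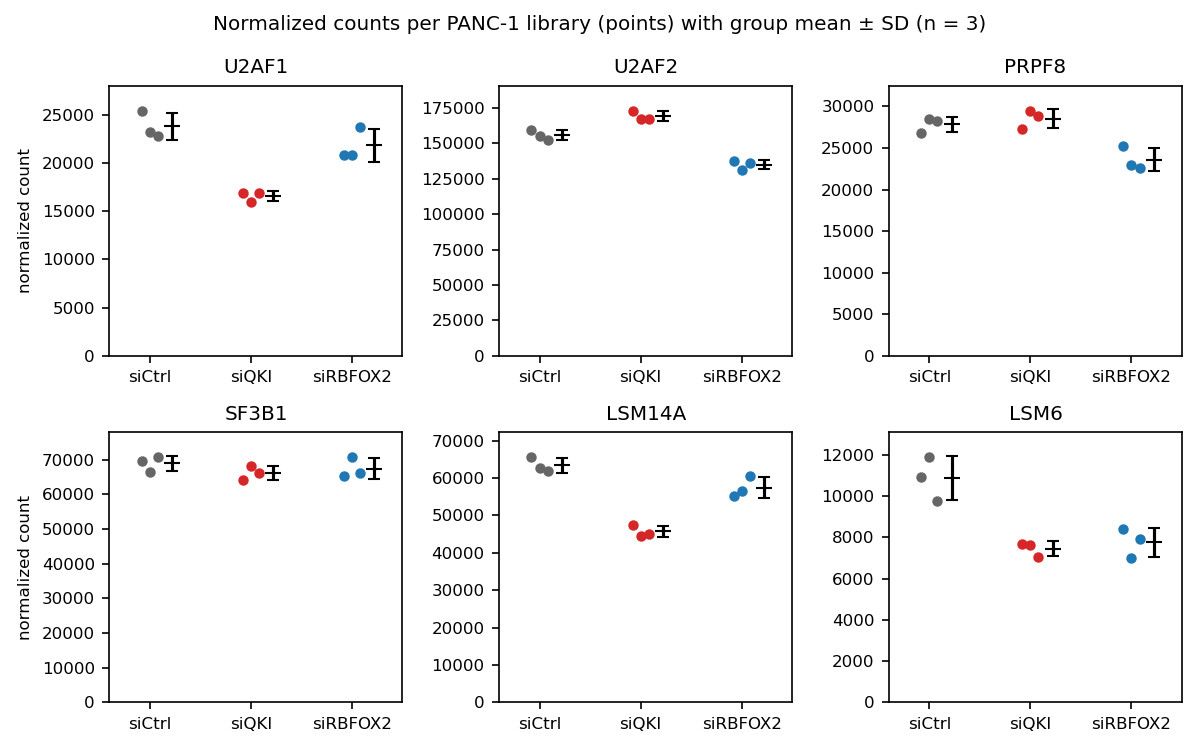
Normalized counts (vertical axes, from 0) of 6 genes in the 9 PANC-1 libraries; points are libraries and bars are mean ± SD of 3. U2AF1 and LSM14A are lowest in siQKI, U2AF2 is highest in siQKI and lowest in siRBFOX2, PRPF8 is lowest in siRBFOX2, LSM6 is lower in both knockdowns, and the SF3B1 libraries of the 3 groups overlap.

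Among the 11 genes of the U2 snRNP, 5 fell in siQKI (45.5%) and 6 did not pass. Of abundant genes, 54.0% were called and 33.4% were lower in siQKI, and 45.0% and 27.7% in siRBFOX2. The counts by role, here and below, are small and were not tested against these shares. The changes were uneven within each subcomplex. SF3A3, a subunit of SF3A, was at 48905, 46600 and 49270 in siCtrl and at 34164, 35741 and 36058 in siQKI. It fell by 26.8% (log2 -0.45 ± 0.045, adjusted p = 1.9e-06). SF3A1 fell by 17.9% (log2 -0.29), whereas SF3A2 had a log2 fold change of -0.01 (95% interval -0.10 to 0.08). Within SF3B, SF3B2 (log2 -0.24) and SF3B6, which contacts the branch-point adenosine (log2 -0.23), fell, and SNRPB2, a U2 RNA-binding protein, fell as well (log2 -0.20). SF3B1 was at 69693, 66426 and 70634 in siCtrl, at 64037, 68193 and 66211 in siQKI and at 65277, 70726 and 66248 in siRBFOX2. These ranges overlap, and its log2 fold changes were -0.06 (95% interval -0.15 to 0.03) in siQKI and -0.03 (-0.12 to 0.06) in siRBFOX2. SF3B3, SF3B4 and SF3B5 had log2 fold changes between -0.05 and -0.02 in siQKI and did not pass.

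The LSm1 to LSm8 genes were lower with 1 exception: 7 of 8 fell in siQKI (87.5%, against 33.4% of abundant genes), and LSM4 did not pass (log2 -0.05). LSM6, a subunit of both the nuclear and the cytoplasmic ring, was at 10948, 11901 and 9790 in siCtrl, at 7687, 7622 and 7042 in siQKI and at 8388, 7010 and 7930 in siRBFOX2. Both knockdowns lay below all siCtrl libraries. Its log2 fold change of -0.54 ± 0.076 in siQKI (adjusted p = 5.3e-05) was the most negative of the genes that passed there, and it was -0.48 ± 0.076 in siRBFOX2 (adjusted p = 0.00024). LSM8, which is present only in the nuclear ring, was at 33975, 29148 and 28109 in siCtrl, at 26700, 21788 and 23920 in siQKI and at 29474, 27022 and 31846 in siRBFOX2. LSM1, its counterpart in the cytoplasmic ring, was at 15049, 15080 and 14225 in siCtrl, at 12391, 12123 and 11674 in siQKI and at 11766, 11388 and 11772 in siRBFOX2. Thus LSM1 was lower in both knockdowns (log2 -0.29 and -0.34), and LSM8 in siQKI (log2 -0.33, adjusted p = 0.0043) but not past the threshold in siRBFOX2 (log2 -0.04, 95% interval -0.22 to 0.13). The call of LSM8 in siQKI was lost without the mean-variance trend of limma (adjusted p = 0.0655).

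Of the 8 Sm ring genes, 5 fell in siQKI (62.5%, against 33.4% of abundant genes) and 4 in siRBFOX2 (50%, against 27.7%). SNRPD1 moved most, from 72851, 71151 and 72926 in siCtrl to 53894, 57083 and 58384 in siQKI (log2 -0.36 ± 0.042, adjusted p = 9.9e-06) and to 56564, 57597 and 61574 in siRBFOX2 (log2 -0.30 ± 0.042, adjusted p = 7.7e-05). SNRPB, which encodes SmB and is itself subject to splicing control, was at 49616, 55488 and 50999 in siCtrl, at 44572, 45208 and 42476 in siQKI and at 45187, 44724 and 48886 in siRBFOX2. It fell in both knockdowns (log2 -0.24 and -0.17), although the fall in siRBFOX2 was lost in 6 of 19 alternatives, among them without siCtrl library 2 (adjusted p = 0.097), siRBFOX2 library 1 (0.067) or siRBFOX2 library 2 (0.066). The exons of SNRPB overlap AL049650.1 on the same strand by 152 bases. SNRPD3 fell in both (log2 -0.15 and -0.29), but its call in siQKI was lost with the upper quartile over tested genes (log2 -0.09, adjusted p = 0.11) or non-zero genes (0.28), with equal library totals (0.11) and without the mean-variance trend (0.056). SNRPE (log2 -0.15) and SNRPF (log2 -0.20) fell in siQKI, and SNRPG (log2 -0.22) fell in siRBFOX2. SNRPD2 and the SNRPN locus passed in neither. Both genes of U1 proteins fell in both knockdowns. SNRPC went from 170639, 170993 and 170189 in siCtrl to 147670, 150552 and 145610 in siQKI and to 145124, 133195 and 150558 in siRBFOX2 (log2 -0.21 and -0.26), and SNRPA, which binds a stem-loop of U1 RNA, had log2 fold changes of -0.23 and -0.19.

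In the tri-snRNP group, PRPF3, PRPF4, PRPF6 and PRPF31 fell in siQKI (log2 -0.29 to -0.17), and PRPF8 did not pass. All 5 fell in siRBFOX2 (log2 -0.34 to -0.20). PRPF31, a U4/U6 protein mutated in retinitis pigmentosa, was at 59724, 56349 and 57563 in siCtrl, at 47430, 47084 and 47025 in siQKI and at 48208, 47763 and 49266 in siRBFOX2. However, its exons overlap AC245052.4 by 589 bases and TFPT by 266, both on the opposite strand. PRPF6, a U5 protein that bridges to U4/U6, was at 50805, 51245 and 51281 in siCtrl, at 44481, 45362 and 45968 in siQKI and at 41169, 39905 and 40175 in siRBFOX2, with no overlap between any pair of groups.

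The 8 other PRPF genes all fell in siQKI (33.4% of abundant genes did), and 5 of them fell in siRBFOX2 (62.5%, against 27.7%). PRPF18, a factor of the second step of splicing, was at 7096, 7694 and 6943 in siCtrl, at 5068, 5191 and 4839 in siQKI and at 5880, 5641 and 6802 in siRBFOX2, so that it fell by 30.5% and 15.9% (adjusted p = 3.5e-05 and 0.016). The fall in siRBFOX2 was lost in 4 of 19 alternatives, among them without siCtrl library 2 (adjusted p = 0.077), siRBFOX2 library 1 (0.062) or siRBFOX2 library 2 (0.074). PRPF38B was at 12020, 11951 and 11528 in siCtrl, at 9206, 9051 and 8774 in siQKI and at 8437, 9821 and 8916 in siRBFOX2, nearly the same change in both (log2 -0.39 and -0.39). PRPF40B, a homolog of a yeast U1 protein, was at 6287, 5484 and 5846 in siCtrl, at 3977, 4478 and 4496 in siQKI and at 5819, 6369 and 5276 in siRBFOX2. It fell in siQKI only among the tests against siCtrl (log2 -0.44 ± 0.078, adjusted p = 0.00038), and its log2 fold change in siRBFOX2 was -0.01 (95% interval -0.18 to 0.15). PRPF40B overlaps FMNL3 on the opposite strand by 1730 exonic bases. PRPF19, the ubiquitin ligase of the Prp19 complex, fell by 8.2% in siQKI (log2 -0.12) and had a log2 fold change of -0.10 in siRBFOX2 (adjusted p = 0.074).

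Of the 7 other genes with an LSM name, 3 fell in siQKI (LSM10, LSM12 and LSM14A) and 3 in siRBFOX2 (LSM10, LSM14A and LSM14B). This is 42.9% in each, against 33.4% and 27.7% of abundant genes. LSM14A was at 65607, 62758 and 61772 in siCtrl, at 47474, 44563 and 45061 in siQKI and at 55300, 56541 and 60484 in siRBFOX2. The siQKI libraries lay below all others (log2 -0.47 ± 0.043, adjusted p = 8.0e-07), and the smaller difference in siRBFOX2 (log2 -0.14 ± 0.043, adjusted p = 0.023) was lost in 7 of 19 alternatives, among them without siCtrl library 1 (0.094), siRBFOX2 library 1 (0.10) or siRBFOX2 library 2 (0.065). Its paralog LSM14B was at 5578, 5809 and 5468 in siCtrl, at 5142, 5553 and 5716 in siQKI and at 4151, 4660 and 4162 in siRBFOX2, so that siRBFOX2 lay below all other libraries (log2 -0.38 ± 0.065, adjusted p = 0.00047) while siCtrl and siQKI overlapped. LSM10 was at 19433, 19930 and 17850 in siCtrl, at 15376, 14514 and 14212 in siQKI and at 15248, 14700 and 16016 in siRBFOX2 (log2 -0.37 and -0.32). LSMEM2 lay at 22.8 to 94.9 normalized counts in the 9 PANC-1 libraries, with standard errors of 0.569 that allow no statement.

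To find which components changed after RBFOX2 silencing, siRBFOX2 and the same siCtrl libraries were compared. Of 52 genes, 31 fell, 21 did not pass and 0 rose by limma (0 also at an unadjusted p under 0.05), and no called change reached 1.5-fold. Over all tested genes 26.5% were called, 14.5% as lower and 12.0% as higher, and over abundant genes 45.0% were called and 27.7% were lower. The share of spliceosome genes called lower was 59.6%. Their median log2 fold change was -0.19, against 0.01 over all tested genes and -0.04 over abundant ones, and libraries did not overlap for 37 of 52 genes (37.9% of tested and 55.9% of abundant genes). The genes with the most negative changes were LSM6, PRPF38B, LSM14B, LSM1, PRPF6 and LSM10. The number called dropped to 19 without the mean-variance trend and was 24 to 37 with 1 library left out. It was also lower with each of the other scalings, which are given in the last section.

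**Figure D3:**
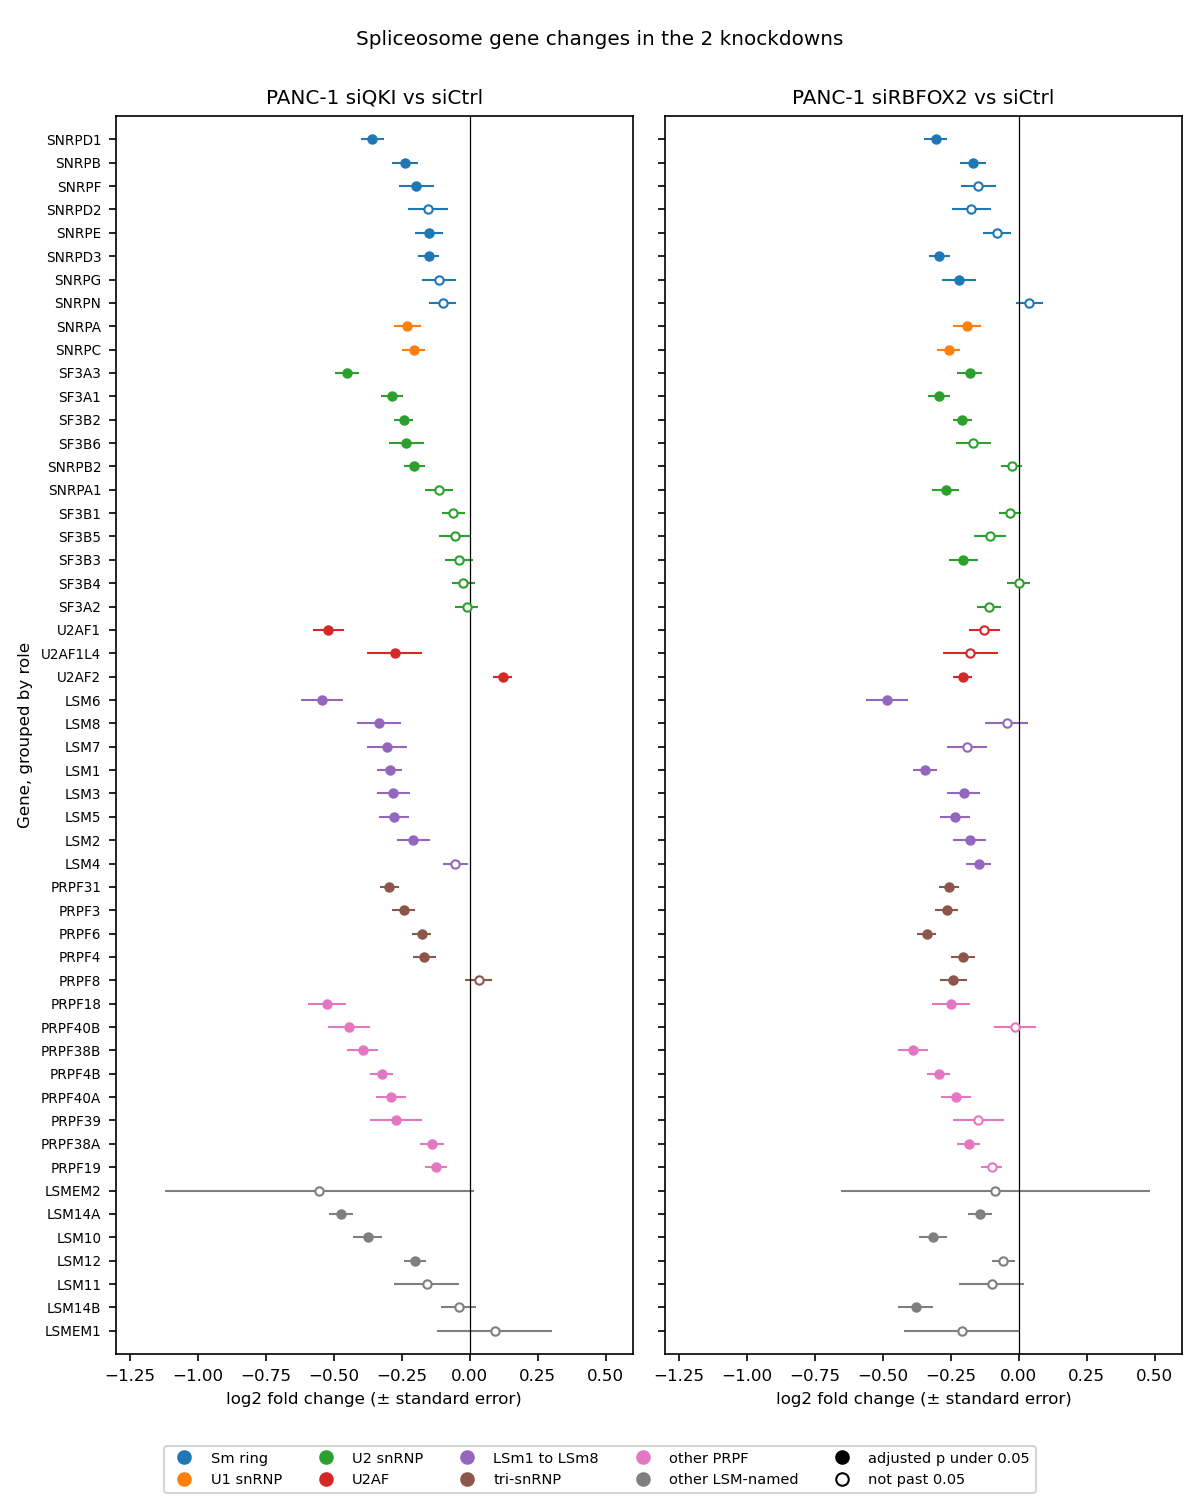
Log2 fold change (horizontal axes) of the 52 tested genes, grouped by role, in siQKI (left) and siRBFOX2 (right) against the same siCtrl libraries; bars are standard errors from limma, filled points have an adjusted p under 0.05. Most points lie left of 0 in both panels, and U2AF2 is the only filled point to the right of 0, in siQKI.

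Both knockdowns were measured against the same 3 siCtrl libraries, so their fold changes are not independent. Side by side, 24 of the 52 genes fell in both, 12 fell in siQKI and did not pass in siRBFOX2, 6 fell in siRBFOX2 and did not pass in siQKI, U2AF2 rose in siQKI and fell in siRBFOX2, and 9 passed in neither (SF3A2, SF3B1, SF3B4, SF3B5, SNRPD2, SNRPN, LSM11, LSMEM1 and LSMEM2). The shares of these classes over all tested genes were not computed, so the counts cannot be read as particular to spliceosome genes. The direct comparison of siQKI with siRBFOX2 takes its fold changes from these 2 groups alone, while its standard errors come from the fit of all 9 libraries, siCtrl included. It called 15 of 52 genes (28.8%), against 21.5% of all tested genes (9.93% as higher and 11.6% as lower in siQKI) and 37.1% of abundant genes. Without the mean-variance trend, or at an adjusted p under 0.01, 9 genes were called. Of the 15, 7 were higher in siQKI (U2AF2, LSM14B, PRPF8, SF3B3, PRPF6, SNRPA1 and SNRPD3) and 8 were lower (PRPF40B, U2AF1, LSM14A, LSM8, PRPF18, SF3A3, SNRPB2 and LSM12).

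The U2AF subunits stood apart in opposite directions in this comparison: U2AF2 was 25.5% higher in siQKI than in siRBFOX2 (log2 0.33 ± 0.035, adjusted p = 9.8e-06), and U2AF1 fell by 23.8% in siQKI relative to siRBFOX2 (log2 -0.39 ± 0.057, adjusted p = 0.00014). PRPF8 was at 26824, 28494 and 28293 in siCtrl, at 27292, 29511 and 28806 in siQKI and at 25200, 23001 and 22615 in siRBFOX2. Its siQKI libraries lay above all siRBFOX2 libraries (log2 0.27 ± 0.049, adjusted p = 0.00076), and it fell in siRBFOX2 (log2 -0.24 ± 0.049, adjusted p = 0.0018). The paralogs LSM14A and LSM14B differed in opposite directions as well (log2 -0.33 and 0.34). SF3A3 was lower in siQKI (log2 -0.27 ± 0.045, adjusted p = 0.00045). SF3B3, a scaffold of SF3B, was at 19352, 19626 and 20426 in siQKI and at 18380, 16151 and 18540 in siRBFOX2 (log2 0.17, adjusted p = 0.034), and SNRPA1, which binds U2 RNA with SNRPB2, was at 27916, 27827 and 26180 against 24338, 22854 and 26394 (log2 0.16, adjusted p = 0.035). These last 2 differences were lost in 5 and 7 of 19 alternatives. In a fit of only the 2 groups compared, neither SF3B3 (adjusted p = 0.054) nor SNRPA1 (0.058) passed. SF3B3 did not pass without siQKI library 2 (adjusted p = 0.074), siQKI library 3 (0.13) or siRBFOX2 library 2 (0.13), and SNRPA1 without siQKI library 1 (0.11), siQKI library 2 (0.12), siRBFOX2 library 1 (0.089) or siRBFOX2 library 2 (0.14). LSM8 and PRPF18 were lower in siQKI (log2 -0.29 and -0.28). LSM8 did not pass without siQKI library 2 (adjusted p = 0.092) or siRBFOX2 library 3 (0.081), PRPF18 without siRBFOX2 library 3 (0.053), and SNRPD3, which was higher in siQKI (log2 0.14), without siQKI library 1 (0.063). Without the mean-variance trend of limma, LSM8 (adjusted p = 0.136), PRPF18 (0.0688) and SNRPD3 (0.089) did not pass either.

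Other spliceosome proteins not caught by the name rule were read from the same fit. Of 63 such genes, 35 fell and 1 rose in siQKI (57.1% called, median log2 -0.16), and 40 fell and 1 rose in siRBFOX2 (65.1% called, median log2 -0.18). The background was 33.0% called in siQKI and 26.5% in siRBFOX2 over all tested genes, and 54.0% and 45.0% over abundant genes. As lower, 55.6% of the 63 genes were called in siQKI and 63.5% in siRBFOX2, against 33.4% and 27.7% of abundant genes. The gene that rose in both was PPIL1, a cyclophilin of the activated spliceosome, from 21785, 21883 and 22863 in siCtrl to 26079, 26682 and 23676 in siQKI (log2 0.20, adjusted p = 0.0044) and 28425, 27949 and 29396 in siRBFOX2 (log2 0.37, adjusted p = 4.6e-05). Among the called genes, only SNRNP27, a tri-snRNP protein, changed by more than 1.5-fold, from 40843, 38534 and 39691 in siCtrl to 23660, 25010 and 24788 in siQKI (log2 -0.70, adjusted p = 4.2e-08). Its siRBFOX2 libraries, at 25773, 27033 and 29191, also lay below all siCtrl libraries. PPIL1 and SNRNP27 were named after their values were seen. Of 15 rows of snRNP assembly factors, such as the SMN complex and the PRMT5 methylosome (SMN1 and SMN2 share a row), 8 fell and 0 rose by limma in siQKI (0 also at an unadjusted p under 0.05, median log2 -0.14). These 53.3% were all called as lower, against 54.0% of abundant genes called in either direction and 33.4% called lower. In siRBFOX2, 7 fell (46.7%, against 27.7% of abundant genes) and 1 rose (median log2 -0.16). The gene that rose was CLNS1A, the chaperone that holds Sm proteins for methylation (log2 0.26, adjusted p = 0.00096), also named after its value was seen. The difference between these lists and the 52 genes was not tested.

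To describe the 2 PDAC lines, HPAF-II and PANC-1 siCtrl libraries were set side by side after rescaling each to a total of 1000000. Because the authors normalized each line in a table of its own, the lines were described without a test. Of 52 genes, 21 differed by at least 1.5-fold, 12 as higher and 9 as lower in HPAF-II, against 69.6% (34.6% higher and 34.9% lower) of the 24673 genes expressed in either line and 59.8% of the abundant ones. The share of the 52 genes, 40.4%, was thus below the background. By role, 6 of the 7 other genes with an LSM name differed this much (85.7%), most of which have other functions. So did all 3 U2AF genes and 1 of the 11 U2 genes. At 2-fold, 11 genes differed (53.2% of all genes compared). Libraries of the 2 lines did not overlap for 34 of 52 genes, against 63.7% and 77.2%. The median log2 ratio was 0.15, against 0.02 over all genes compared. The split depends on the scaling: with the values as deposited, 6 genes were higher and 10 lower. HPAF-II replicate 3 lay apart from the other 2 for some of these genes, in both directions. It was lower for SNRPD1 and SF3B1, among others. It was higher for SNRPD2 (233 against 115 and 117), LSM4 (379 against 189 and 213) and LSM7 (61.0 against 31.6 and 31.9), among others. Without replicate 3, 24 genes differed by at least 1.5-fold, 13 as higher and 11 as lower.

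LSM1 had the highest ratio, with 164, 166 and 114 in HPAF-II against 44.4, 43.3 and 41.2 in PANC-1 (log2 1.77), while LSM8 was alike, with 89.4, 96.0 and 85.0 against 100.3, 83.7 and 81.4 (log2 0.03). PRPF18 followed with 63.5, 68.4 and 46.8 against 20.9, 22.1 and 20.1 (log2 1.48), and LSM11 with 11.2, 11.9 and 11.0 against 3.91, 4.68 and 4.27 (log2 1.41). The exons of LSM1 overlap AC084024.3 by 452 bases and BAG4 by 129, both on the opposite strand. Those of PRPF18 overlap AL157392.5 on the same strand by 577 bases, so the counts of both genes are uncertain. SNRPD1 was at 553, 584 and 259 against 215, 204 and 211 (log2 1.06). HPAF-II replicate 3 lay near the PANC-1 level, and without it the log2 ratio of SNRPD1 was 1.43. SNRPD3 was at 587, 595 and 540 against 323, 293 and 295 (log2 0.92), and its exons overlap GUCD1 on the opposite strand by 321 bases.

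U2AF again split by subunit. U2AF1 was at 142, 159 and 111 in HPAF-II against 75.1, 66.6 and 66.1 in PANC-1 (log2 0.97), and U2AF2 at 214, 207 and 249 against 471, 445 and 442 (log2 -1.03). U2AF1L4, whose counts are uncertain because of its exon overlaps, was at 11.2, 13.8 and 14.3 against 32.4, 34.7 and 31.4 (log2 -1.33). None of these ranges overlapped, and all 3 genes passed 1.5-fold. The log2 fold changes in siQKI, which use the same PANC-1 siCtrl libraries, were -0.52 for U2AF1 and 0.12 for U2AF2.

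Also lower in HPAF-II were LSM10 (18.0, 14.8 and 26.2 against 57.4, 57.2 and 51.7, log2 -1.53), LSM14A (80.2, 83.4 and 77.5 against 194, 180.2 and 179, log2 -1.20), PRPF31 (88.8, 84.1 and 90.0 against 176, 162 and 167, log2 -0.94), LSM2 (52.8, 41.7 and 62.5 against 92.5, 104 and 88.3, log2 -0.88) and LSMEM1, at 0.397 or less against 0.835 or more. LSMEM2 was listed at 0 in 2 HPAF-II libraries and at 0.145 in the other, so its ratio rests on the pseudocount. SF3B1 was at 278, 280.3 and 163 against 206, 191 and 205 (log2 0.22), and PRPF8 at 82.7, 83.0 and 71.2 against 79.2, 81.8 and 81.9 (log2 -0.04), with overlapping libraries for both. In the U2 snRNP, only SF3B4 passed 1.5-fold among 11 genes (201, 204 and 178 against 117, 110 and 106, log2 0.81).

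The SNRPN locus was listed at 0 in all 3 HPAF-II libraries and at 44.0, 41.7 and 39.4 in PANC-1. SNRPN lies in an imprinted region of chromosome 15 and encodes SmN, a close relative of SmB expressed mainly in brain. SNRPB, the gene of SmB, was at 115, 121 and 183 in HPAF-II and at 146, 159 and 148 in PANC-1, which overlap. Of the neighbours at this locus, MKRN3 was at 2.06, 2.73 and 2.76 in PANC-1 and at 0.165 or less in HPAF-II. UBE3A, whose row overlaps the end of the SNRPN row, was at 66.8, 74.5 and 55.8 in HPAF-II and at 61.3, 58.1 and 61.1 in PANC-1. MAGEL2 and NDN were at 0.0254 or less in both lines.

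**Figure D4:**
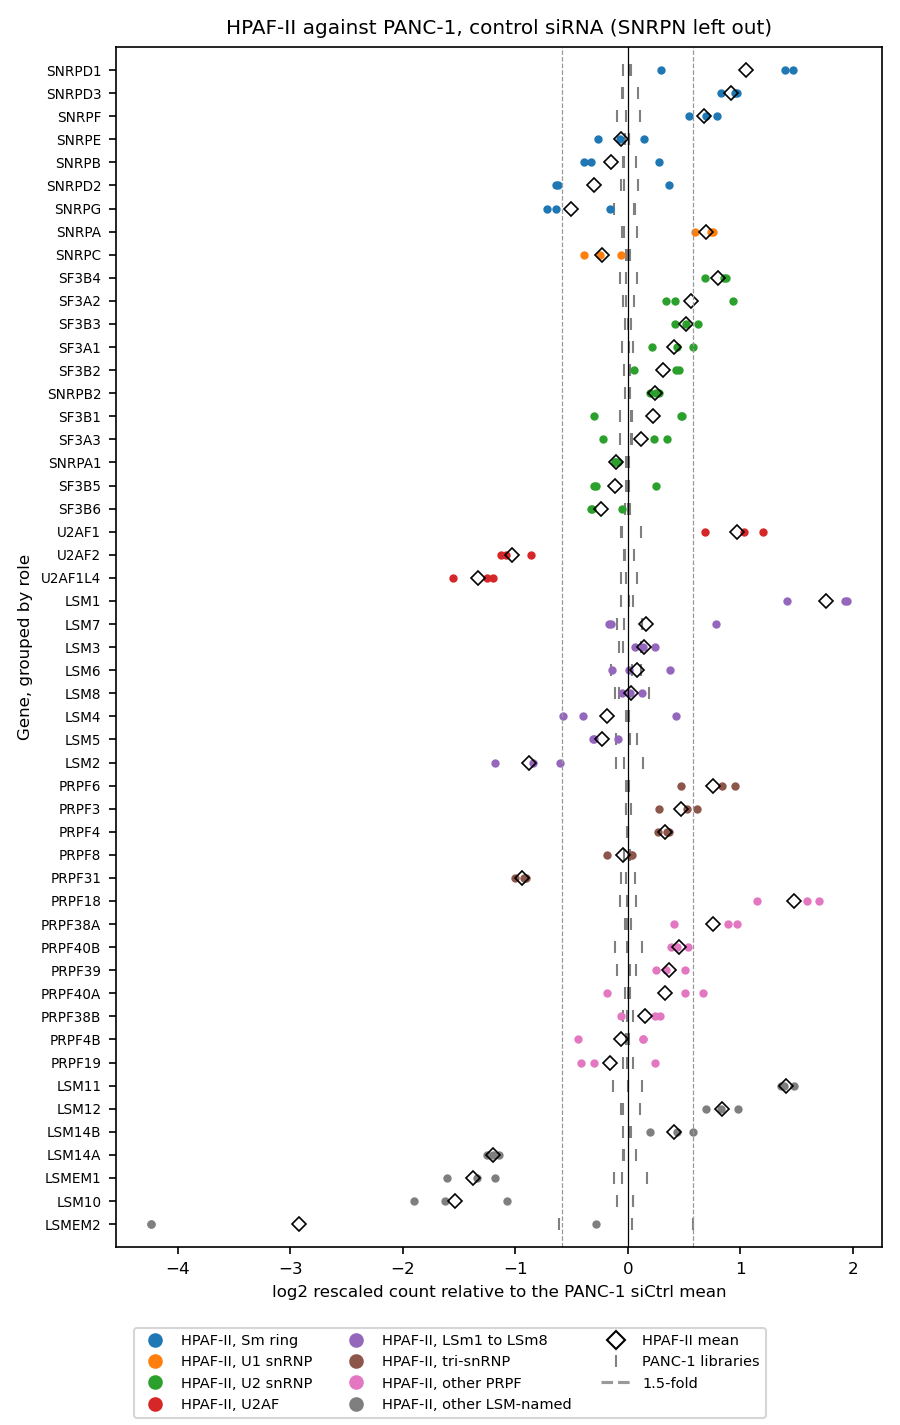
Log2 of the rescaled count of each gene relative to its PANC-1 siCtrl mean (horizontal axis), grouped by role; colored points are the 3 HPAF-II libraries, open diamonds their mean, grey ticks the 3 PANC-1 siCtrl libraries and dashed lines 1.5-fold. LSM1, PRPF18 and LSM11 lie farthest to the right and LSMEM2 (listed at 0 in 2 HPAF-II libraries), LSM10 and LSMEM1 farthest to the left; the SNRPN locus, listed at 0 in HPAF-II, is left out.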

How the data were processed

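PANC-1 (siCtrl, siQKI, siRBFOX2) and HPAF-II (siCtrl) libraries, 3 per group, were grouped by the labels. The authors sequenced polyA-selected RNA in a 150 bp paired-end format, and the labels name STAR 2.7.5a, hg38 and DESeq2. The deposited values are a signal: counts per gene of the FAST DB annotation, which the authors scaled with DESeq2 size factors, separately for each line. Every value was a whole multiple of its library's step (within 0.01), but 82.1% to 84.8% of values of 1 to 30 steps were multiples of 3, so depth in fragments is unknown, no count test was run and precision was taken from replicates. Strand and read-pair counting are not given in the sources used here, so genes with overlapping exons are uncertain.

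Differences among PANC-1 groups were tested with limma 3.58.1 (R 4.3.3, mean-variance trend, no block) on log2(normalized count + 1), 22544 genes with a mean of at least 10, threshold 0.05. In simulated data with 200 genes changed 2-fold, the procedure recovered 183 and called 5 unchanged genes. Smaller changes, such as those called here, were not simulated. The lines were compared, with no test, as the difference of mean log2(rescaled + 0.01). Tables were handled in Python 3.11.15 with pandas 2.3.3 and plotted in matplotlib 3.10.9. Named genes are, among those with a mean of at least 50, up to 6 per direction and contrast that passed, the 6 highest and lowest between the lines, and SF3B1, U2AF1, U2AF2, PRPF8, SNRPB, SNRPN and U2AF1L4; others serve as examples of their role and were chosen after their values were seen. The genes and lists were chosen with earlier results of these data known. The form of the upper-quartile scaling (over tested genes) and of the ratio between lines were changed after first outputs were seen; the first forms are given among the alternatives.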

Additional observations from a re-analysis of the deposited data

How the results depend on the processing

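Of the 52 genes, 37 were called in siQKI, 31 in siRBFOX2 and 15 between the knockdowns, and 21 differed by 1.5-fold between the lines. With 1 library left out, these counts were 30 to 38, 24 to 37, 11 to 15 and 21 to 24. Without the mean-variance trend they were 25, 19 and 9, and at an adjusted p under 0.01 the last was 9. At least 2-fold between the lines, 11 genes differed. Pseudocounts of 0.1 and 10, no filter, a mean of at least 50 and a fit of only the groups compared gave 36 to 39, 30 to 31 and 13 to 16. Between the lines, a pseudocount of 1 gave 19 and the values as deposited 16. Upper-quartile scaling over tested genes gave 27, 27, 15 and 21. In its first form, over the non-zero genes of each library, it gave 24, 25, 16 and 17, and moved the median log2 fold change of all genes in siQKI from 0.03 to 0.11; for the lines it turned the split from 12 higher and 9 lower to 6 and 11. The first form of the ratio, between group means, gave 22. Equal library totals, added after the data were seen, gave 28, 24 and 14. No named log2 fold change that passed turned its sign in any alternative. Over all tested genes, same-numbered libraries did not deviate together (r from -0.0325 to 0.0235). This gives no sign of pairing by number but cannot exclude a small shared effect. The replicate block gave 37, 30 and 14. The planned edgeR alternative was not run, because whole fragments could not be recovered from the deposited values. The causes were not tested.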
